A study of Mus musculus with 27 samples.

Results

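The comparison described here is that of KUSA4b10 cells given parathyroid hormone, PTH, for 1 h with untreated KUSA4b10 cells of the same time. It rests on 6 of the 27 Affymetrix expression arrays of the study, chosen by their labels: 3 from cells with PTH and 3 from untreated cells. KUSA4b10 is 1 line of mouse marrow stromal cells. The PTH groups received the fragment of residues 1 to 34 at 10 nM and were collected at 1, 6 or 24 h. The PTHrP groups received parathyroid hormone-related protein of residues 1 to 141 at 20 nM at the same times, and each time had its own untreated group. Every group has 3 arrays, and no genetic change is labelled. The title of the study names the regulation of ephrin B2 by both peptides in differentiating osteoblasts.

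PTH and PTHrP bind the same G protein-coupled receptor, the product of Pth1r, which is found on osteoblasts and their precursors. The receptor couples to adenylyl cyclase, and the cyclic AMP that is made activates protein kinase A. Protein kinase A phosphorylates the transcription factor CREB, which binds the cyclic AMP response element, and genes that need no new protein for their induction respond first. In bone, the hormone is known for raising RANKL, the osteoclast-forming cytokine encoded by Tnfsf11, and, when given intermittently, for building bone.

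All levels below are log2 intensities, where a difference of 1 is a 2-fold difference. A gene is represented by 1 probe set, so levels are compared between samples and not between genes. The median linear intensity of the 6 arrays ran from 83.9 to 88.0, and a difference between groups of 3 arrays had a median SE of 0.10. Across genes, which are not independent replicates, arrays correlated at 0.9955 to 0.9966 with PTH and at 0.9957 to 0.9971 in untreated cells. Levels of the 3′ probe set of Actb exceeded those of its 5′ probe set by 0.269 ± 0.019 with PTH and by 0.229 ± 0.022 in untreated cells (SD, n = 3), with all PTH arrays above (two-sided exact permutation p = 0.1, the smallest possible). For Gapdh the same difference was -0.173 ± 0.013 with PTH and -0.178 ± 0.010 in untreated cells (exact permutation p = 0.5). The part of this in the results was not tested. Whether each replicate was a culture of its own is not labelled. The p-values therefore reflect variation among arrays alone, and that variation may be technical. For the SE above and the limma p-values below, the spread was estimated from the arrays of all groups and times. It does not come from these 6 arrays alone.

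After 1 h with PTH, 226 genes rose and 47 fell among the 15711 tested (limma, Benjamini-Hochberg adjusted p under 0.05). That is 1.44% and 0.299% of all genes, or 1.74% together. These shares are the background for each list below. The increases were larger: 77 exceeded 2-fold, 17 of them by at least 2 log2 units, against 2 decreases beyond 2-fold, of Cdk5r1 and Txnip. The median change was 0.77 for genes that rose and -0.44 for genes that fell, and -0.02 over all genes. In bulk samples, more cells that express a gene and more RNA per cell cannot be told apart. On all 273 of these genes the PTH arrays did not overlap the untreated ones, whereas over all genes 7.41% had every PTH array above and 9.85% every PTH array below. The calls rest on these same arrays, so the separation of a called gene is a description and no further support.

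The call count depends on how the arrays are scaled and weighted. After quantile normalization 230 genes rose and 99 fell, so that 69.9% of calls were increases in place of 82.8%, and with array weights 523 rose and 279 fell (65.2%). Among the genes that rose, untreated replicate 1 was the highest of its group for 47.3%, against 27.2% of all genes. PTH replicate 1 was the lowest of its group for 58.8% of them, against 37.9% of all genes. Without PTH replicate 1, 238 genes rose and 41 fell. Without untreated replicate 1, 202 rose and 24 fell.

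**Figure D1:**
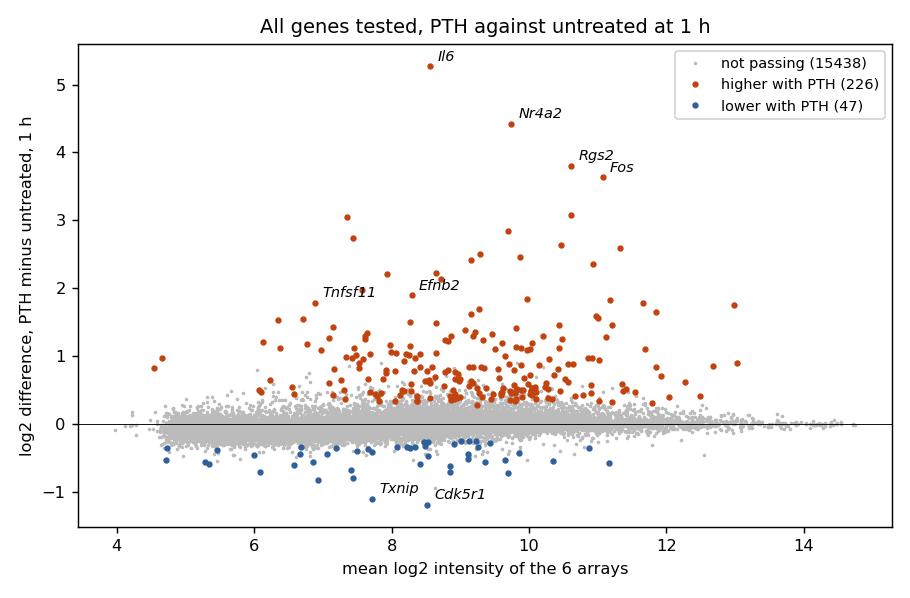
Log2 difference, PTH minus untreated at 1 h, against the mean log2 intensity of the 6 arrays for the 15711 genes tested. Each point is a gene; the 226 genes that rose spread up to 5.27, while the 47 that fell lie between -0.25 and -1.19.

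Il6 had the largest increase of the genes tested, and it belongs to the secreted cytokines that act through the gp130 receptor. Of 18 tested genes on a list of gp130 cytokines, their receptors, their inhibitors and some other genes, 6 rose and 0 fell. The list median was 0.27. Il6, the gene of interleukin 6, read 11.72, 11.58 and 10.29 with PTH, against 6.61, 5.30 and 5.86 in untreated cells. The groups did not overlap, and PTH replicate 3 was the lowest of its group. The difference was 5.27 ± 0.37 (SE), or 38.7-fold (limma adjusted p = 2.4e-10). Lif, the gene of leukaemia inhibitory factor, read 9.54, 9.97 and 9.77 with PTH, against 7.59, 7.51 and 7.52 in untreated cells, a 4.67-fold rise. Il11, the gene of interleukin 11, read 8.06, 8.43 and 8.27 with PTH, against 6.94, 6.89 and 7.07 in untreated cells, a rise of 1.29 ± 0.12. All 3 cytokine genes had separate groups on every array. A smaller rise was that of Clcf1, the gene of a further ligand of this family, by 0.49 ± 0.09. Bcl3, an atypical inhibitor of NF-kappa B, rose by 0.95 ± 0.11, and Pim1, a kinase gene, by 0.79 ± 0.10. Neither encodes a gp130 cytokine or receptor. Socs3, a feedback inhibitor of gp130 signalling, did not pass: it read 10.75, 10.29 and 10.20 with PTH, against 10.75, 9.73 and 9.78 in untreated cells, where untreated replicate 1 equalled the highest PTH array.

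Among 19 tested factors that regulate osteoclasts, 5 rose and 0 fell: Il6, Lif and Il11 again, with Tnfsf11 and Ptgs2. Tnfsf11 read 7.52, 7.81 and 8.0 with PTH, against 6.19, 5.76 and 6.02 in untreated cells. No PTH array overlapped an untreated one, and the rise was 1.79 ± 0.27, or 3.45-fold (limma adjusted p = 0.000151). A second Tnfsf11 probe set rose by 1.09 ± 0.20. Tnfrsf11b encodes osteoprotegerin, the decoy receptor that binds RANKL. It read 10.84, 11.09 and 10.94 with PTH, against 10.79, 10.99 and 10.85 in untreated cells, and the groups overlapped (0.08 ± 0.14). Csf1, the macrophage growth factor gene, averaged 10.88 with PTH and 10.64 in untreated cells and did not pass (0.24 ± 0.11, limma adjusted p = 0.468).

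Of 11 tested prostaglandin synthase and receptor genes, 3 rose and 0 fell, and the list median was 0.05. Ptgs2, the gene of inducible cyclooxygenase, read 11.81, 11.95 and 11.57 with PTH, against 9.56, 8.89 and 8.99 in untreated cells, a rise of 2.63 ± 0.21. Ptger4, the gene of a prostaglandin E2 receptor that raises cyclic AMP, read 8.67, 8.58 and 8.39 with PTH, against 6.67, 6.36 and 6.71 in untreated cells, a rise of 1.97 ± 0.14. In both genes the groups stood apart on every array. Ptgfr, the gene of the prostaglandin F receptor, rose by 0.48 ± 0.09 (limma adjusted p = 0.00142).

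Of 18 tested chemokine and cytokine genes, 2 rose, Cxcl5 by 1.11 ± 0.26 and Cxcl1 by 0.57 ± 0.13, both neutrophil attractants. The Cxcl5 call was lost without PTH replicate 1 or 2 or untreated replicate 2 or 3, and the Cxcl1 call without PTH replicate 3 or untreated replicate 1 or 2. The adjusted p was then as high as 0.169 for Cxcl5 and 0.185 for Cxcl1. The size of the Cxcl1 change depends on the probe set. Another Cxcl1 probe set averaged 11.05 with PTH and 7.08 in untreated cells, a rise of 3.97 ± 0.25 (limma adjusted p over all probe sets = 7.1e-11). A further one averaged 9.63 with PTH and 7.57 in untreated cells, a rise of 2.06 ± 0.12.

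Ephrins and Eph receptors signal between touching cells. Of 16 tested, 2 rose and 0 fell: Efnb2, the ephrin B2 gene named in the title, and Epha2. Efnb2 read 8.88, 9.65 and 9.19 with PTH, against 7.72, 7.19 and 7.13 in untreated cells. The lowest PTH array lay above the highest untreated one, and the rise was 1.89 ± 0.16, or 3.72-fold (limma adjusted p = 1.56e-08). The other Efnb2 probe sets rose by 2.08 ± 0.16 and 1.14 ± 0.15, and the last differed by 0.30 ± 0.12 and did not pass. Epha2, an Eph receptor gene, rose by 1.00 ± 0.13, with 9.93, 10.19 and 10.31 with PTH, against 9.35, 8.97 and 9.11 in untreated cells. Ephb4, whose product is the receptor for ephrin B2, read 8.75, 8.57 and 8.60 with PTH, against 8.70, 8.75 and 8.72 in untreated cells and did not pass (-0.08 ± 0.07). The median of the list was -0.08, below that of all genes.

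**Figure D2:**
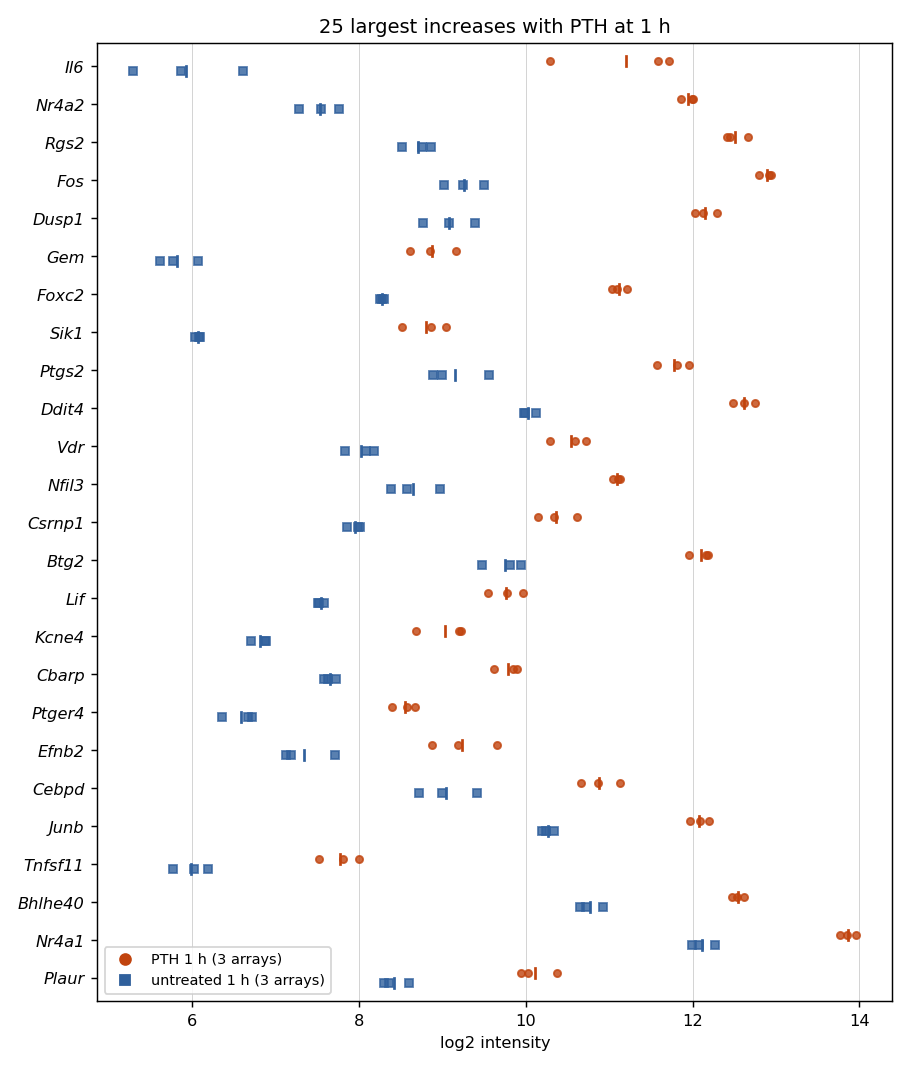
Log2 intensity of the 25 genes with the largest increases, PTH above untreated within each gene. Points are single arrays and short vertical lines group means (n = 3 each); the groups are separate for every gene shown, and Il6 has the widest spread within both groups.

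The receptor gene and those of the enzymes next to it did not pass the test at 1 h by the probe sets that stand for them. Pth1r read 11.08, 11.21 and 11.20 with PTH, against 11.02, 11.19 and 11.14 in untreated cells (0.05 ± 0.09), and the groups overlapped. In limma 0 of 21 tested genes of the receptor's proximal signalling passed, and 0 of 9 genes of protein kinase A subunits and inhibitors, with 0 in either list at an unadjusted p under 0.05. Their largest differences were 0.24 ± 0.17 for Plcb1, a phospholipase C gene, and 0.15 ± 0.09 for Akap13, an anchoring protein gene. A second Akap13 probe set read 8.10, 8.11 and 8.10 with PTH, against 7.36, 7.62 and 7.49 in untreated cells, a rise of 0.62 ± 0.13 (limma adjusted p over all probe sets = 0.00667). Of 6 tested genes of RAMPs, the calcitonin-like receptor and adrenomedullin 0 passed in limma and 2 had an unadjusted p under 0.05. Ramp3, a receptor partner, differed by 0.34 ± 0.11 (limma adjusted p = 0.158).

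A few genes whose products damp cyclic AMP or G protein signalling passed the test. Rgs2 encodes a protein that switches off G proteins. It read 12.45, 12.67 and 12.41 with PTH, against 8.86, 8.51 and 8.75 in untreated cells, a rise of 3.80 ± 0.14, or 13.9-fold. No array overlapped. Rgs3, of the same family, went the other way: it read 9.54, 9.26 and 9.19 with PTH, against 10.19, 9.90 and 10.08 in untreated cells, and fell by 0.72 on the log2 scale (SE 0.12, limma adjusted p = 0.000634). Another Rgs3 probe set differed by -0.92 ± 0.17 and passed, while others differed by -0.12 ± 0.12 and -0.09 ± 0.12 and did not. Rgs2 and Rgs3 were the calls among 13 regulators of G protein signalling, whose median was -0.13. Of 16 cyclic nucleotide phosphodiesterases, which break down cyclic AMP or cyclic GMP, 2 rose and 0 fell: Pde4b by 1.26 ± 0.17 and Pde4d by 1.15 ± 0.16. Pde4b read 7.56, 7.86 and 7.72 with PTH, against 6.71, 6.09 and 6.56 in untreated cells, without overlap. Sik1, a salt-inducible kinase that protein kinase A inhibits, read 8.51, 8.86 and 9.04 with PTH, against 6.04, 6.08 and 6.09 in untreated cells, a rise of 2.73 ± 0.15. Hdac5, a class IIa histone deacetylase controlled by such kinases, was the other of the 11 on its list to pass, at 0.36 ± 0.09. That call was lost when any 1 of the 6 arrays was left out (adjusted p up to 0.215).

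Of 12 MAP kinase phosphatase genes, 4 rose. Dusp1 read 12.30, 12.13 and 12.03 with PTH, against 9.40, 8.76 and 9.08 in untreated cells, a rise of 3.07 ± 0.17 with no overlap. Dusp2, Dusp10 and Dusp5 rose by 1.09 ± 0.12, 1.03 ± 0.10 and 0.85 ± 0.10. Dusp7 fell by 0.36, but the call was lost when PTH replicate 2 or 3, or any 1 of the untreated arrays, was left out (adjusted p up to 0.278). Gem, a small GTPase that restrains calcium channels, read 8.85, 9.16 and 8.61 with PTH, against 6.07, 5.61 and 5.77 in untreated cells, a rise of 3.06 ± 0.20. Of the other 10 small GTPase genes on its list, Rasd1, a Ras relative, passed with 0.43 ± 0.09, and that call was lost without PTH replicate 2 or 3 or untreated replicate 1 or 2 (adjusted p up to 0.0758). Among 13 genes of Sprouty and EGF receptor feedback, Spry2 rose by 1.03 ± 0.11 and Errfi1 by 0.86 ± 0.10. Both products restrain receptor tyrosine kinases. Cbarp, whose product restrains voltage-gated calcium channels, rose by 2.14 ± 0.15, and Kcne4, a potassium channel subunit gene, by 2.22 ± 0.14.

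Among immediate early transcription factors, some members rose and others did not pass. Fos, a partner in AP-1, read 12.94, 12.92 and 12.80 with PTH, against 9.49, 9.02 and 9.25 in untreated cells, a rise of 3.63 ± 0.15, or 12.4-fold. Junb read 12.19, 11.97 and 12.09 with PTH, against 10.34, 10.20 and 10.24 in untreated cells, a rise of 1.82 ± 0.11. Fosl2 rose by 1.46 ± 0.09 and Maff by 0.82 ± 0.13, which makes 4 of 11 genes on the AP-1 list. Other members did not pass. Jun averaged 9.47 with PTH and 9.92 in untreated cells, with every PTH array below (-0.45 ± 0.13, limma adjusted p = 0.116). Fosb read 9.30, 8.61 and 8.47 with PTH, against 8.61, 8.65 and 8.41 in untreated cells, so that its difference of 0.23 rests on PTH replicate 1 and is -0.02 without it.

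The EGR zinc finger genes respond early to growth factors, and none of them passed. Egr1 read 12.60, 12.04 and 12.31 with PTH, against 12.75, 12.84 and 12.73 in untreated cells (-0.46 ± 0.15, limma adjusted p = 0.198). Egr2 and Egr3 differed by -0.38 ± 0.15 and -0.34 ± 0.15 and did not pass either. Nab2, whose product represses EGR factors, was the 1 of 6 on that list that passed, with 10.74, 10.89 and 10.83 with PTH, against 10.02, 10.02 and 9.98 in untreated cells, a rise of 0.81 ± 0.08.

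The NR4A orphan nuclear receptors all held a probe set that rose. Nr4a2 read 12.00, 11.99 and 11.86 with PTH, against 7.76, 7.28 and 7.54 in untreated cells, a rise of 4.42 ± 0.24, or 21.4-fold. Nr4a1 read 13.96, 13.86 and 13.77 with PTH, against 12.08, 11.99 and 12.27 in untreated cells, a rise of 1.75 ± 0.13. Neither gene's groups overlapped. Nr4a3 did not pass by the probe set with its highest mean over the study (-0.12 ± 0.13). Another Nr4a3 probe set read 10.79, 10.71 and 10.66 with PTH, against 7.43, 7.21 and 7.52 in untreated cells, a rise of 3.33 ± 0.18 (limma adjusted p over all probe sets = 5.25e-12). This probe set was singled out after its values were seen. The call for Nr4a3 therefore depends on the probe set.

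Crem, the gene of a CREB relative that includes the cyclic AMP-induced repressor ICER, rose by 1.43 ± 0.21. It read 7.79, 8.13 and 7.64 with PTH, against 6.63, 6.40 and 6.26 in untreated cells. The other 12 genes of CREB factors and their coactivators did not pass, among them Creb1 (0.19 ± 0.17). Of 40 other immediate and delayed early genes, 16 rose and 3 fell. The increases include Nfil3, a transcriptional repressor (2.45 ± 0.15), Csrnp1, a nuclear protein (2.42 ± 0.11), Btg2 and Tob1, antiproliferative genes (2.36 ± 0.13 and 1.28 ± 0.12), and Cebpd and Cebpb, bZIP transcription factors (1.84 ± 0.17 and 1.10 ± 0.11). Csrnp1 read 10.61, 10.34 and 10.15 with PTH, against 8.01, 7.85 and 7.99 in untreated cells, without overlap. Ier3, a survival gene, rose by 1.66 ± 0.11, and Zfp36, whose product destabilises cytokine mRNAs, by 1.24 ± 0.11. The 3 that fell were Klf6, Myc and Nfkbia. Klf6, a zinc finger factor, read 9.13, 9.05 and 9.06 with PTH, against 9.73, 9.60 and 9.59 in untreated cells, a fall of 0.56 on the log2 scale. Myc, a driver of growth, differed by -0.55 ± 0.13 and Nfkbia, the classical NF-kappa B inhibitor, by -0.35 ± 0.08. The Myc call was lost when any 1 of the 6 arrays was left out (adjusted p up to 0.104), and the Nfkbia call without PTH replicate 2 or untreated replicate 1 (adjusted p up to 0.109). The other Nfkbia probe sets differed by -0.33 to 0.01 and did not pass. Within the 13 genes of NF-kappa B subunits and feedback, Nfkbiz, a coactivator of Il6 transcription, rose by 1.48 ± 0.18 beside Bcl3.

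The promoter sequence of these genes shows where the letters of the cyclic AMP response element stand. RefSeq windows of 300 bases, lying mostly upstream of the annotated start (mouse build GRCm38.p6), were searched on both strands for the full palindrome TGACGTCA and for its core, TGACG or CGTCA, which the full site contains. A window was found for 177 of the 226 genes that rose. Of these, 5.65% (10 genes) hold the full site and 48.6% (86 genes) a core. Of the 38 genes that fell and have a window, 0% (0 genes) hold a full site and 26.3% (10 genes) a core. Of all 12496 tested genes with a window, 3.16% hold a full site and 31.8% a core. Among the 20 of the 25 largest increases that have a window, 10% (2 genes) hold a full site and 70% (14 genes) a core. A gene counts as holding a match if any of its windows does, and some genes have several. The windows number 246 for genes that rose, 45 for genes that fell and 15824 for all genes tested. The part of this in the shares was not tested. Over all windows in the RefSeq table, counted by window and not by gene, the shares are 1.79% and 20.8%. The mean GC content of the windows was 62.5% for genes that rose, 62.4% for genes that fell and 59.4% for all genes tested; its part in these shares was not tested. A match is a description of the letters and not a shown binding site.

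The full sites of 5 genes described here are shown, upstream of the start and 5′ to 3′ on the strand of the gene, with the palindrome in capitals. They are from chr17:26508584-26508639 (minus strand) for Dusp1, chr1:134079290-134079345 (minus) for Btg2, chr4:141301164-141301219 (plus) for Epha2, chr4:150854995-150855050 (plus) for Errfi1 and chr15:79347467-79347519 (plus) for Maff. The first base of the site lies 143, 166, 33, 51 and 29 bases before the start.
Dusp1: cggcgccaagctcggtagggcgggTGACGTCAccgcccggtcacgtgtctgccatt
Btg2: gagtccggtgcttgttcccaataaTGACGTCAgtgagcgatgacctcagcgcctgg
Epha2: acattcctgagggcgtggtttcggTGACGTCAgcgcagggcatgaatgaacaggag
Errfi1: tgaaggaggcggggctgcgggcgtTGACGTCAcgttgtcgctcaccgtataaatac
Maff: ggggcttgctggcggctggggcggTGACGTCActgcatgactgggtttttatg

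A core is shown for the 4 largest increases and for Efnb2, with cores in capitals. The stretches are chr5:30012959-30013003 (plus) for Il6, chr2:57124090-57124134 (minus) for Nr4a2, chr1:144004192-144004236 (minus) for Rgs2, chr12:85473804-85473848 (plus) for Fos and chr8:8661328-8661372 (minus) for Efnb2. No full site was found in these 5 windows, which says nothing of sites elsewhere.
Il6: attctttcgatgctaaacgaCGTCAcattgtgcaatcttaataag
Nr4a2: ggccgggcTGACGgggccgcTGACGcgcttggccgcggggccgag
Rgs2: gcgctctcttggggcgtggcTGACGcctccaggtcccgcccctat
Fos: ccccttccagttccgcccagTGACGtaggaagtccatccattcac
Efnb2: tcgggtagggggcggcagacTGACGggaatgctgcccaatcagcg

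Regulators of lineage and differentiation were a mixed group. Vdr, the vitamin D receptor gene, read 10.30, 10.72 and 10.60 with PTH, against 8.08, 7.83 and 8.18 in untreated cells, a rise of 2.51 ± 0.22 and the 1 call among 19 nuclear receptor genes. Of 23 forkhead, homeobox and related regulators, 5 rose and 1 fell. Foxc2, a forkhead factor of mesenchyme, read 11.03, 11.21 and 11.09 with PTH, against 8.28, 8.25 and 8.30 in untreated cells, a rise of 2.84 ± 0.12. Its relative Foxc1 rose by 0.62 ± 0.08, the zinc finger repressor Snai1 by 1.29 ± 0.08 and the chondrocyte regulator Sox9 by 1.06 ± 0.09. Twist1, a repressor of osteoblast maturation, differed by 0.53 ± 0.13, and the call was lost when any 1 of the PTH arrays, or untreated replicate 2 or 3, was left out (adjusted p up to 0.169). Foxq1 fell by 0.59, a call lost without PTH replicate 2 or 3 or untreated replicate 2 (adjusted p up to 0.0787). Another Foxq1 probe set differed by -1.34 ± 0.26 (limma adjusted p over all probe sets = 0.00248).

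Signalling pathways that shape bone showed few calls each. Of 24 genes of BMP signalling, 4 rose: Smad6 and Smad7, the inhibitory SMADs, by 1.24 ± 0.13 and 0.88 ± 0.10, Id3, an inhibitor of basic helix-loop-helix factors, by 0.84 ± 0.10, and Bambi, a decoy receptor, by 0.60 ± 0.12. The Bambi call was lost without PTH replicate 3 or untreated replicate 1 (adjusted p up to 0.0717). Smad6 read 9.20, 9.40 and 9.57 with PTH, against 8.20, 8.10 and 8.15 in untreated cells, without overlap. Inhba, the activin subunit gene, differed by 0.70 ± 0.20 and did not pass (limma adjusted p = 0.0968). Of 15 TGF-beta genes, Skil, a corepressor of SMADs, rose by 0.88 ± 0.17. Of 32 Wnt genes, Wnt4, a ligand, rose by 0.84 ± 0.13. Hes1, a repressor downstream of Notch, read 10.32, 10.45 and 10.77 with PTH, against 9.07, 9.15 and 9.09 in untreated cells, a rise of 1.41 ± 0.12. The receptor gene Notch1 was the other of 14 Notch genes to pass, at 0.55 ± 0.13, and its call was lost without PTH replicate 2 or 3 or untreated replicate 1 or 2 (adjusted p up to 0.116).

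Among 20 genes of VEGF, FGF and PDGF factors, Vegfa, the angiogenic growth factor gene, and Fgf7, an epithelial growth factor gene, rose. Vegfa read 11.62, 11.97 and 11.78 with PTH, against 10.45, 10.11 and 10.10 in untreated cells, a rise of 1.57 ± 0.11. Fgf7 rose by 0.95 ± 0.14. Irs2, an adaptor of insulin and IGF receptors, rose by 0.66 ± 0.10 and was the 1 call among 13 IGF genes. Plaur, the urokinase receptor gene, rose by 1.69 ± 0.15 and Adamts1, a secreted metalloprotease gene, by 1.12 ± 0.15, out of 20 matrix proteases and inhibitors. Has2, the hyaluronan synthase gene, read 9.72, 9.74 and 9.83 with PTH, against 8.29, 8.59 and 8.24 in untreated cells, a rise of 1.39 ± 0.26 and the 1 call among 26 matrix genes.

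Per1, a core clock repressor, rose by 1.62 ± 0.10 and Bhlhe40, a repressor that feeds back on the clock, by 1.78 ± 0.10. With Nfil3 they made 3 calls among 19 clock genes. Per1 read 9.90, 10.03 and 9.97 with PTH, against 8.22, 8.49 and 8.31 in untreated cells. Ddit4, the gene of an inhibitor of mTORC1, read 12.48, 12.75 and 12.62 with PTH, against 10.12, 9.99 and 9.98 in untreated cells, a rise of 2.59 ± 0.11. Its relative Ddit4l fell by 0.53, a call lost without PTH replicate 2 or untreated replicate 2 (adjusted p up to 0.0625). The alpha-arrestin genes diverged: Arrdc3 rose by 1.02 ± 0.16, whereas Txnip, the thioredoxin-interacting protein gene, read 7.23, 7.08 and 7.19 with PTH, against 8.32, 8.23 and 8.25 in untreated cells, a fall of 1.10 on the log2 scale. Hk2, a hexokinase gene, rose by 0.87 ± 0.11. These were 3 increases and 2 decreases among 15 genes of that list. Among 28 cell cycle genes, Cdkn1b, a cyclin-dependent kinase inhibitor, rose by 0.55 ± 0.09. Cdkn1a, of the same class, passed at 0.31 ± 0.07, a call lost without PTH replicate 2 or 3 or untreated replicate 1 or 2 (adjusted p up to 0.0986).

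**Figure D3:**
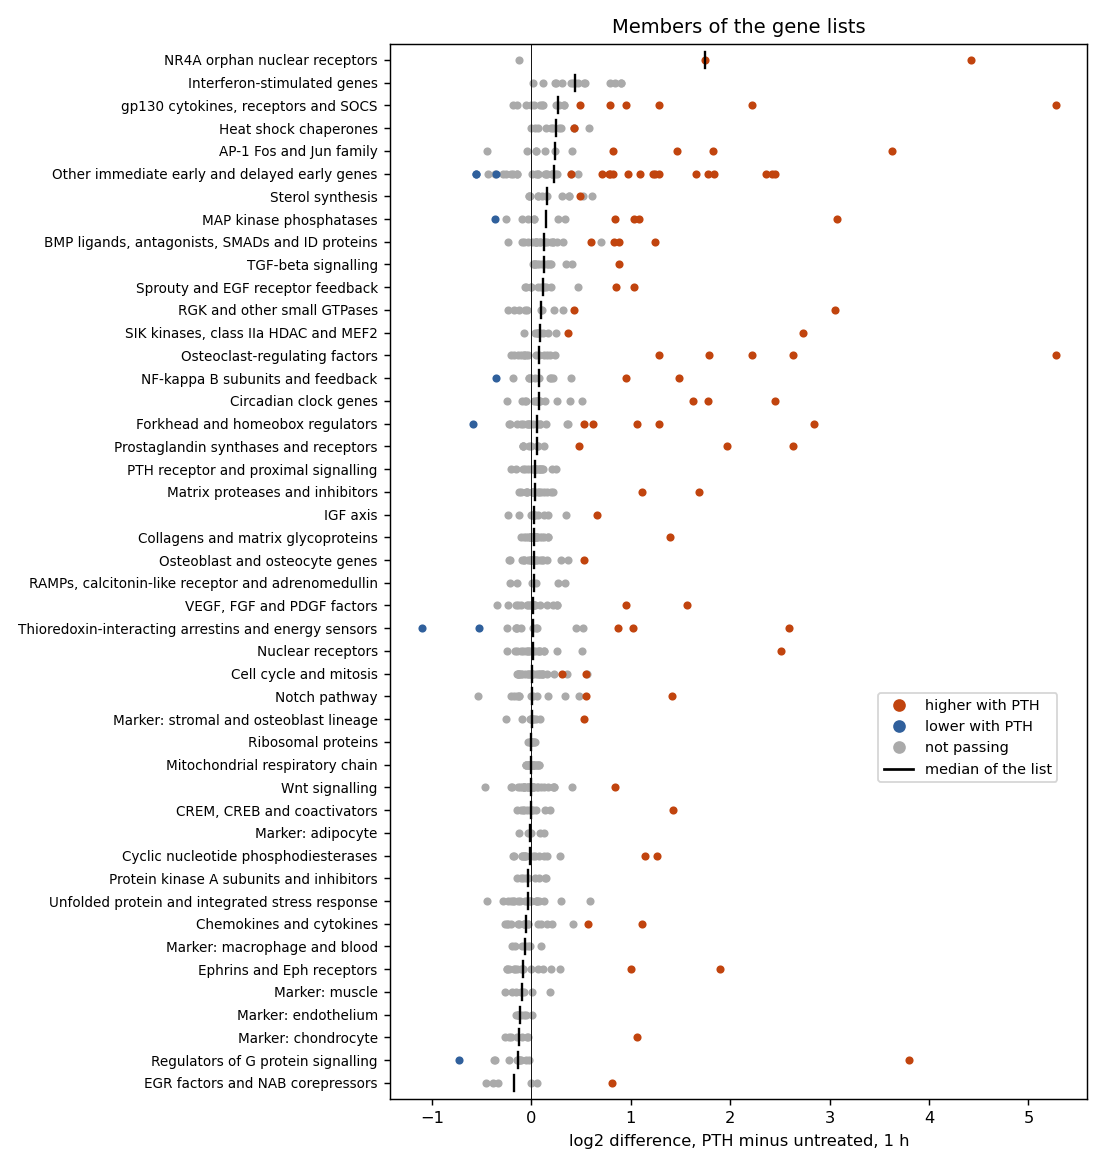
Log2 difference, PTH minus untreated at 1 h, for each tested member of 46 gene lists, ordered by list median. Coloured points passed the test in limma and grey points did not; most list medians lie near 0, and a few members stand far to the right.

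The genes that fell were fewer and their changes smaller. Cdk5r1 encodes p35, the activator of the kinase Cdk5. It read 7.99, 7.64 and 8.12 with PTH, against 9.05, 9.26 and 9.03 in untreated cells, a fall of 1.19 on the log2 scale, or 2.28-fold (limma adjusted p = 8.72e-08). Of its 3 other probe sets, 2 also fell. Fgd3, the gene of a Cdc42 exchange factor, fell by 0.83, while another Fgd3 probe set differed by -0.17 ± 0.09 and did not pass. Ppp1r3c, a glycogen-targeting subunit of protein phosphatase 1, fell by 0.70, and Pik3ip1, an inhibitor of PI3 kinase, by 0.63. Pik3ip1 averaged 8.53 ± 0.14 with PTH and 9.16 ± 0.04 in untreated cells (SD, n = 3), without overlap. Magef1 fell by 0.60, and the transcripts 2810410L24Rik, A430033K04Rik and 9930012K11Rik fell by 0.79, 0.72 and 0.68. Another A430033K04Rik probe set differed by -0.21 ± 0.09 and did not pass. The weakest of the 15 largest decreases were Npas4, a neuronal activity-induced factor, Nrbf2, an autophagy gene, and D930003E18Rik, at -0.59 ± 0.14, -0.58 ± 0.13 and -0.57 ± 0.15. The D930003E18Rik call was lost when any 1 of the 6 arrays was left out, that of Npas4 when any 1 but untreated replicate 2 was, and that of Nrbf2 without PTH replicate 3 or untreated replicate 1. Their adjusted p then reached 0.260, 0.178 and 0.109.

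**Figure D4:**
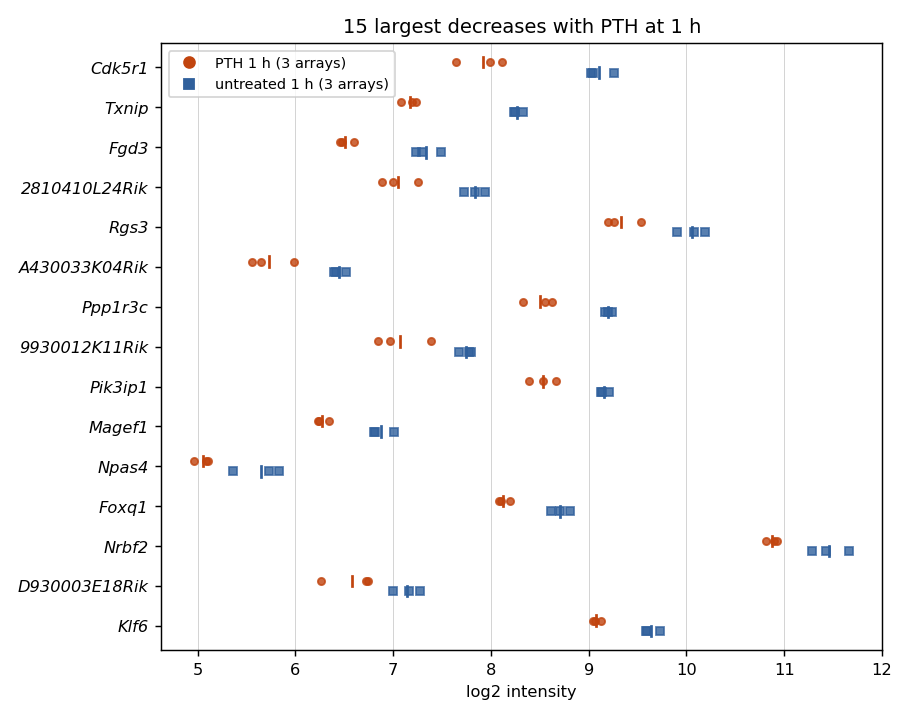
Log2 intensity of the 15 genes with the largest decreases, PTH above untreated within each gene. Points are single arrays and short vertical lines group means (n = 3 each); the groups are separate for every gene, with the widest gaps in Cdk5r1 and Txnip.

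Differentiation genes showed little at this time. Of 21 osteoblast and osteocyte genes, Pdpn, the gene of podoplanin, an early osteocyte marker, rose by 0.53 ± 0.10, and no other passed. Sp7, the osteoblast factor osterix, read 10.75, 10.64 and 10.84 with PTH, against 10.80, 10.88 and 10.82 in untreated cells (-0.09 ± 0.11). Dmp1, a matrix protein gene of osteocytes, read 8.73, 9.08 and 9.27 with PTH, against 9.18, 9.29 and 9.30 in untreated cells (-0.23 ± 0.34). Sost, the sclerostin gene, was dim in every array, at 4.88 to 5.14 with PTH and 4.79 to 5.04 in untreated cells. Bglap and Runx2 were not analysed here. In limma 0 of 20 genes of the unfolded protein and integrated stress response, 0 of 19 of the respiratory chain and 0 of 10 ribosomal protein genes passed, with 1, 0 and 0 at an unadjusted p under 0.05. The 1 stress gene was Ppp1r15a, a phosphatase subunit, with 0.59 ± 0.16 (limma adjusted p = 0.0505). Bag3 rose by 0.43 ± 0.07 among 12 heat shock genes, and Cyp51 by 0.49 ± 0.13 among 14 sterol genes, and the Cyp51 call was lost when any 1 of the 6 arrays was left out (adjusted p up to 0.288).

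Interferon-stimulated genes had a list median of 0.44, and 0 of 15 passed in limma, with 7 higher at an unadjusted p under 0.05. Ifit1, an antiviral effector, read 10.07, 10.53 and 10.25 with PTH, against 9.60, 8.96 and 9.58 in untreated cells (0.90 ± 0.39, adjusted p = 0.466). Oasl2, of the same response, read 7.71, 8.77 and 8.40 with PTH, against 7.83, 6.93 and 7.42 in untreated cells (0.90 ± 0.40, adjusted p = 0.491). The arrays of Ifit1 did not overlap while those of Oasl2 did. The spread, estimated from the arrays of all groups and times, was wide. Ifit1 did not pass in 18 of 19 alternatives (lowest limma adjusted p = 0.0106), and Oasl2 in 19 of 19.

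Markers of the labelled cell type and of others were summed on each array, and sums are compared between samples of 1 list only. The summed linear intensity of the 11 tested stromal and osteoblast lineage markers was 80409 to 81744 with PTH and 78590 to 83235 in untreated cells. For endothelium it was 630 to 711 with PTH and 674 to 755 in untreated cells (10 summed, 8 tested). For macrophages and blood it was 744 to 847 with PTH and 780 to 868 in untreated cells (9 summed, 7 tested). For muscle it was 627 to 701 with PTH and 685 to 736 in untreated cells (10 summed, 8 tested). Chondrocyte markers summed to 2019 to 2065 with PTH and 1990 to 2029 in untreated cells (10 summed, 8 tested). Adipocyte markers summed to 11962 to 16218 with PTH and 11880 to 15516 in untreated cells (8 summed, 7 tested). The markers Tek, Vwf, Ptprc, Itgam, Myf5, Myh3, Hapln1, Matn1 and Lep were below the filter on dim genes and so not tested, but they are in the sums. Sox9 and Twist1 were the calls among all these markers.

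PTHrP was set beside PTH at the same time. The dose and length of the peptides differ, and the comparisons of each with untreated cells share the same 3 control arrays. No gene passed in the direct test of PTH minus PTHrP (0% of 15711 in limma, smallest adjusted p = 0.725), and 632 had an unadjusted p under 0.05. Over the alternatives run, the count of genes passing was 0 or 1. Il6 read 11.72, 11.58 and 10.29 with PTH and 10.09, 9.66 and 10.89 with PTHrP, a difference of 0.98 with a 95% interval of 0.23 to 1.74 before adjustment (adjusted p = 0.926). Efnb2 read 8.88, 9.65 and 9.19 with PTH and 9.30, 8.94 and 8.78 with PTHrP, and the difference was 0.23 (-0.10 to 0.57). For Tnfsf11 it was 0.10 (-0.46 to 0.67), with 7.52, 7.81 and 8.0 with PTH and 8.20, 7.87 and 6.96 with PTHrP. Nr4a2 and Fos differed by 0.17 (-0.32 to 0.66) and 0.27 (-0.04 to 0.57). The intervals show how large a difference remains possible for each gene, and equality was not shown. PTHrP replicate 3 stood apart from its group, with a correlation as low as 0.983, and was the lowest of the group for Tnfsf11. Leaving it out of the shared fit raised the PTH calls to 367 higher and 75 lower.

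The effect at 1 h was then set against the effects at 6 and 24 h, each measured against untreated cells of its own time. Untreated levels also changed with time, in either direction: from 1 to 6 h by -1.92 for Nr4a1, -1.41 for Fos and 1.42 for Ddit4. A change of effect is thus not a change of the level with PTH alone. Of the 226 genes that rose at 1 h, 164 also rose at 6 h, which is 72.6% of them and 9.17% of the 1789 genes that rose at 6 h (11.4% of all). At 24 h 51 rose, or 22.6% and 5.70% of the 894 that rose then (5.69% of all). Of the 47 genes that fell at 1 h, 27 fell at 6 h, which is 57.4% of them and 0.959% of the 2816 that fell at 6 h (17.9% of all). At 24 h 11 of them fell, or 23.4% and 1.18% of the 936 that fell then (5.96% of all). The test of the difference between effects passed for 2914 genes at 6 h (18.5% of all) and 1030 at 24 h (6.56% of all). Among the genes that rose at 1 h, the 6 h effect was below the 1 h effect for 76 and above it for 53. Over all genes 12.1% lay below and 6.49% above by this test. The 24 h effect was below for 135 and above for 1, against 4.16% and 2.4% of all genes. The genes that rose were chosen for a high 1 h effect, and that same estimate is subtracted here. The choice thus favours a later effect below that at 1 h, and the shares of all genes are no matched background.

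The named genes differed in their course. Nr4a2 had effects of 4.42, 1.47 and 0.33 at 1, 6 and 24 h, and Fos of 3.63, 2.12 and 0.17. Sik1 had 2.73, 0.88 and -0.03. The Tnfsf11 effect was 1.79 ± 0.27 at 1 h, 5.35 ± 0.27 at 6 h and 0.93 ± 0.27 at 24 h, and the 6 h group means were 10.45 ± 0.17 with PTH and 5.10 ± 0.39 in untreated cells (SD, n = 3). That of Il11 was 1.29, 4.63 and 0.29. Il6 had 5.27 and 6.08 at 1 and 6 h, a difference that did not pass (limma adjusted p = 0.33), and 0.60 at 24 h. From 1 to 6 h the Il6 mean went from 11.20 to 10.52 with PTH and from 5.92 to 4.44 in untreated cells. That last level lies below log2 5, the filter value for dim genes. Pde4b, Ackr3, a scavenging chemokine receptor, and Vdr had larger effects at 6 h as well, with values of 3.83, 4.08 and 4.29. The untreated Ackr3 mean at 6 h, 4.72, was also below log2 5. Il11, Ackr3 and Pde4b were chosen here for their large change from 1 to 6 h, so that change is no further support. Efnb2 kept effects of 1.53 ± 0.16 at 6 h and 1.31 ± 0.16 at 24 h, neither of which differed from that at 1 h by the test (limma adjusted p = 0.32 and 0.16).

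**Figure D5:**
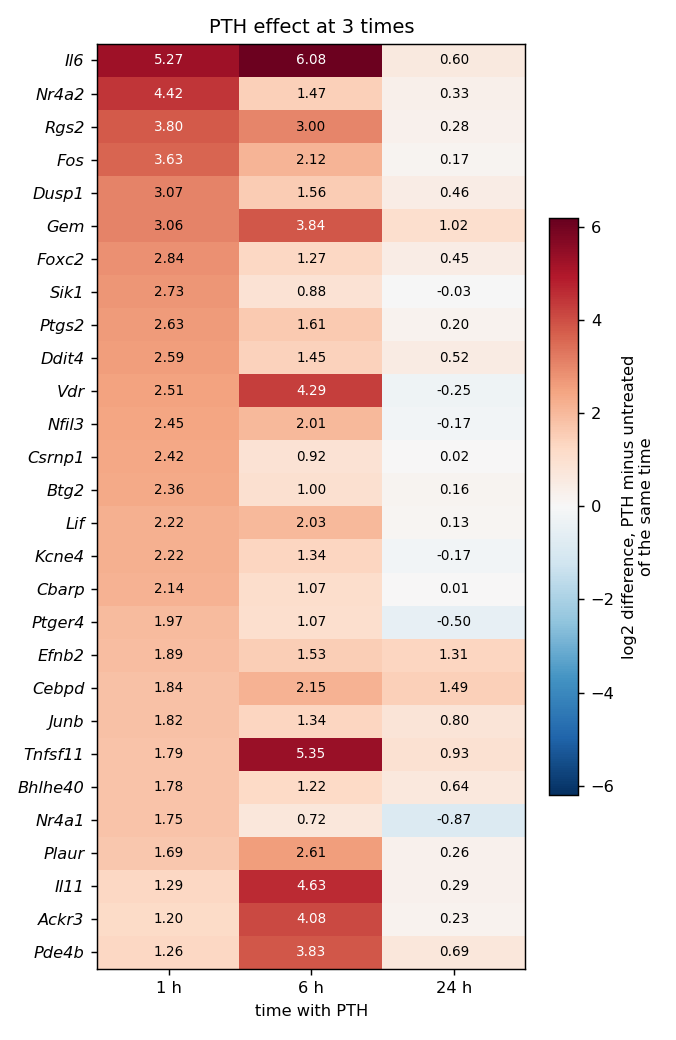
Log2 difference, PTH minus untreated of the same time, at 1, 6 and 24 h for the 25 largest increases at 1 h and 3 further genes with a large change of effect. Each cell prints its value. Il6, Tnfsf11, Il11, Vdr, Ackr3, Gem and Pde4b read 3.83 or more at 6 h, and Gem, Efnb2 and Cebpd stay above 1 at all 3 times.

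Several bone genes that did not pass at 1 h fell later. Effects at 1, 6 and 24 h were -0.23, -3.36 and -4.61 for Dmp1, -0.09, -1.85 and -1.89 for Sp7, 0.08, -3.10 and -1.65 for Tnfrsf11b and 0.05, -1.12 and -0.82 for Pth1r. The Dmp1 means with PTH, 4.96 at 6 h and 3.95 at 24 h, lie below log2 5, the filter value for dim genes. The size of its later falls is thus uncertain. For Pth1r the direction at 1 h is not settled, since the value is -0.02 after quantile normalization. Each of these later effects passed in limma and differed from the effect at 1 h by the test of the difference.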

How the data were processed

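RNA of 27 KUSA4b10 samples was labelled with biotin by the Affymetrix One Cycle protocol and hybridised to 1 array each, per the labels' protocols. The authors deposited linear intensity values for 45101 probe sets, made by RMA per the submitters' processing notes; the RMA version is not given in the sources used here. RMA corrects background, equalises array distributions and summarises probes, which can compress differences of dim probe sets. The deposited intensities were converted to log2 here with no further scaling.

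After removal of 64 control probe sets, 34945 probe sets had 1 gene symbol in the platform annotation, 932 several and 9211 none. Where a gene had several probe sets, the one of highest average level across the 27 arrays stood for it, and genes at log2 5 or more on at least 3 arrays were kept (15711 of 18193). A linear model with 1 mean per group was fitted to all arrays with limma 3.58.1 in R 4.3.3, so that the 9 groups share 1 estimate of the spread, and p-values were Benjamini-Hochberg adjusted over all genes. The fitting code was tested on simulated data. Intervals are 95% and not adjusted.

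Genes named are the 25 largest increases, the 15 largest decreases, genes with a large change of effect over time, fixed bone genes, and members of 46 lists; those outside this rule are said to be so. The members and lists were chosen with earlier results of these data known. Alternatives covered scaling, filters, probe set choice, weights, offsets, the replicate block and leaving out arrays. Array number limits precision.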

Additional observations from a re-analysis of the deposited data

Results flagged for a closer look

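Genes are listed here because their PTH effect at a later time differed from that at 1 h by a test of the difference itself (limma, adjusted p under 0.05), which over all genes held for 2914 at 6 h and 1030 at 24 h. Values are log2 differences of effects, later time minus 1 h, each effect being PTH minus untreated of its own time, with 3 arrays a group. The untreated arrays of 1 h enter every value. The largest increases and decreases were chosen by the 1 h effect that is subtracted, which favours later effects nearer 0. Il11, Ackr3 and Pde4b were chosen for their large change from 1 to 6 h itself. Their 6 h values here thus repeat that choice and are no further support.

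At 6 h the effect lay above that at 1 h for some genes that rose, fell or did not pass at 1 h. These values were Vdr 1.78, Tnfsf11 3.56, Plaur 0.92, Txnip 0.79, 2810410L24Rik 0.72, Ppp1r3c 1.08, D930003E18Rik 0.72, Klf6 0.54, Il11 3.35, Ackr3 2.87, Pde4b 2.57 and Csf1 0.45.

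The 6 h effect lay below that at 1 h for further named genes. The values were Nr4a2 -2.95, Rgs2 -0.80, Fos -1.51, Dusp1 -1.51, Foxc2 -1.57, Sik1 -1.85, Ptgs2 -1.02, Ddit4 -1.14, Csrnp1 -1.50, Btg2 -1.36, Kcne4 -0.88, Cbarp -1.07, Ptger4 -0.90, Junb -0.48, Bhlhe40 -0.56, Nr4a1 -1.02, Fgd3 -0.57, Pik3ip1 -1.40, Pth1r -1.16, Tnfrsf11b -3.18, Dmp1 -3.14 and Sp7 -1.76.

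By 24 h few of the named genes had an effect above that at 1 h. They read Txnip 1.08, 2810410L24Rik 1, Rgs3 0.90, A430033K04Rik 0.60, Magef1 0.77, Klf6 0.62 and Csf1 0.80.

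Other named genes had a 24 h effect below that at 1 h. The differences were Il6 -4.67, Nr4a2 -4.09, Rgs2 -3.53, Fos -3.47, Dusp1 -2.61, Gem -2.04, Foxc2 -2.38, Sik1 -2.76, Ptgs2 -2.43, Ddit4 -2.07, Vdr -2.75, Nfil3 -2.62, Csrnp1 -2.40, Btg2 -2.20, Lif -2.09, Kcne4 -2.39, Cbarp -2.13, Ptger4 -2.46, Junb -1.02, Bhlhe40 -1.14, Nr4a1 -2.62, Plaur -1.43, Il11 -1, Pth1r -0.87, Tnfrsf11b -1.73, Dmp1 -4.38 and Sp7 -1.80. For Dmp1, Sp7, Tnfrsf11b and Pth1r the 1 h effect had not passed the test.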

How the results depend on the processing

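The 273 genes that passed at 1 h became 442 without PTHrP replicate 3, 721 when every probe set was tested on its own, 802 with array weights and 58 against a 1.5-fold change; leaving out 1 array of either group gave 194 to 279, and 172 genes passed each time. The direct test against PTHrP gave 1 gene with every probe set and 0 to 1 on leaving out an array. The change of effect to 6 h gave 5030 genes with every probe set and 335 against 1.5-fold, and 2355 to 2844 on leaving out an array; that to 24 h gave 1805, 113 and 804 to 1079, and 2583 with array weights. After quantile normalization 45.4% of the 6 h changes were increases, in place of 35%. Whether the replicate numbers pair the samples is not labelled. Same-numbered PTH and untreated arrays correlated at -0.37, -0.19 and -0.01 in their deviations, which with 3 arrays a group cannot settle it. A fit of only the arrays compared gave 306 genes at 1 h, and 193 with the replicate block. Directions that reversed were those of genes that had not passed: leaving out 1 array gave -0.0188 to 0.393 for Fosb, lowest without PTH replicate 1, -0.0493 to 0.0825 for Sost, negative without PTH replicate 1 or untreated replicate 2, and -0.00351 to 0.0871 for Pth1r, lowest without untreated replicate 1. Pth1r read -0.0201 after quantile normalization, and Nr4a3 1.12 as the mean of its probe sets. Of the other values of named genes under alternatives, 2114 kept direction and side of the threshold, 163 lost the threshold and 31 gained it. The causes were not tested beyond what each alternative's construction shows.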

Other observations

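The genes of this paragraph lie outside the lists and were named after their values were seen, so they stand for no group. Sphk1, the kinase that makes sphingosine 1-phosphate, read 10.68, 10.36 and 10.08 with PTH, against 9.30, 9.09 and 9.32 in untreated cells, a rise of 1.13 ± 0.14 (limma adjusted p = 4.64e-06). S1pr1, a receptor for that lipid, read 10.43, 10.20 and 10.34 with PTH, against 9.30, 9.50 and 9.56 in untreated cells, a rise of 0.87 ± 0.10. Neither gene's groups overlapped. The homeobox genes Hlx, Irx3, Nkx2-3 and Irx5 rose by 1.32 ± 0.09, 1.24 ± 0.10, 0.81 ± 0.09 and 0.74 ± 0.10. Sdc4 and Sdc1, cell surface proteoglycans, rose by 0.96 ± 0.17 and 0.59 ± 0.07.

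The choice of probe set mattered beyond Nr4a3. Among the genes that passed at 1 h, 152 had more than 1 tested probe set. More than 1 of these probe sets passed for 100 genes, every one for 60, and one in the opposite direction for 0. For 114 genes that did not pass by their own probe set another probe set passed, 83 higher and 31 lower (limma, adjusted over all probe sets). Of these, 9 are on a list: Nr4a3, Stat3, Id2, Akap13 and Fosl1 higher, and Dcn, Sesn1, Ccn1 and Panx3 lower. Another probe set of Nrp1, a semaphorin and VEGF coreceptor, rose by 2.45 ± 0.27 and one of Kremen1 by 1.72 ± 0.14. By the probe sets that stand for them, Nrp1 and Kremen1 differed by -0.02 and 0.13 and did not pass. Both genes lie outside the lists and were named after their values were seen. Of 5908 tested probe sets without a gene symbol, 144 rose and 31 fell, and 57 rose more than 2-fold.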
